A study of Mus musculus with 9 samples.

Results

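Area CA1 of the mouse hippocampus was compared between animals that had received an H2A.Z hairpin and were left untrained (naive) and animals that had received a scrambled hairpin (control). Of the 9 polyadenylated RNA libraries of the series, 3 are labelled naive and 3 control, and the comparison covers the 12324 genes, of 24462 in the deposited table, whose mean over these 6 libraries reached 1 FPKM. Every level is in FPKM, which divides the fragments of a gene by its transcript length and by the mapped fragments of the library. The mice were of strain C57BL/J6 and 9 to 12 weeks old. The hairpins were delivered by adeno-associated virus, a gene delivery vector. It expressed an shRNA (a short hairpin RNA that lowers a chosen mRNA) against H2A.Z in the naive group and a scrambled shRNA in the control group. The promoter of the hairpin, the cells infected, the number of animals behind a library and whether the control mice were trained are not given in the labels. Another 3 libraries come from mice with the H2A.Z shRNA that were trained in contextual fear conditioning, and their values are set beside the others where they help to place a library.

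H2A.Z, a histone H2A variant, is placed into nucleosomes by remodelling complexes, often at the starts and enhancers of genes. In the hippocampus it has been studied as a chromatin regulator of memory genes. Interferons are secreted signals whose receptors activate STAT and IRF transcription factors. These factors bind interferon-stimulated response elements and gamma-activated sites in front of target genes, which encode antiviral effectors, immunity-related GTPases and the machinery that shows peptides to T cells.

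Depth was similar in the 6 libraries. Relative to control replicate 2, it lay between 0.874 and 1.25, so that each kilobase of a transcript at 1 FPKM was covered by about 17.8 to 25.7 fragments. Small RNA rows took 5.43% to 30.1% of the summed FPKM of these libraries. Markers of CA1 pyramidal neurons were abundant, with Wfs1, an endoplasmic reticulum protein of these neurons, at 61.2 to 99.6 FPKM in the 6 libraries. Prox1, a transcription factor used here as a marker of dentate granule neurons, was present too, at 9.66 to 28.9 FPKM. What share of the RNA came from the neighbouring dentate field was not tested.

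The mRNA aimed at by the hairpin was not lower in the naive libraries than in the controls. H2afz, which encodes H2A.Z.1 and lies on chromosome 3 at 137864487 to 137866922 (GRCm38, plus strand), stood at 26.1, 28.7 and 26.4 FPKM in control replicates 1 to 3. In naive replicates 1 to 3 it stood at 25.1, 27.8 and 28.0 FPKM. The ranges overlap, and the log2 fold change on the log2(FPKM + 1) scale, which is used for every fold change here, was -0.01 (95% confidence interval -0.17 to 0.16, limma adjusted p = 0.976). H2afv, which encodes H2A.Z.2, stood at 14.3, 14.7 and 16.2 FPKM in control and 15.4, 15.7 and 15.9 FPKM in naive libraries (log2 difference 0.06 with an SE of 0.06, limma adjusted p = 0.700). Every direction below is therefore between libraries as labelled.

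No gene passed the threshold of 0.05 on the limma adjusted p, in either direction (0 higher and 0 lower of 12324, which is 0%). The smallest adjusted p was 0.069, for Ralyl and the unnamed transcript A730017C20Rik. Before adjustment, 1207 genes had a p under 0.05 and a higher naive level (9.79%) and 705 a lower one (5.72%). That split moves with the scaling: under median-of-ratios scaling 994 of 1932 such genes were higher, under quantile normalization 839 of 1994, and with small RNA rows left out and totals equalised 1025 of 1883. The naive range lay wholly above the control range for 1380 genes (11.2%) and wholly below it for 1017 (8.25%). Over all genes tested the median log2 fold change was 0.02, with 55.1% above 0 and 44.9% below. Against these background shares the groups of genes below are to be read, and since no single gene was called, they are described by levels and counts. A gene whose control mean is under 1 FPKM passed the filter only through the naive libraries and had to stand higher there. That holds for 3 of 15 nucleic acid sensors, 6 of 28 interferon-stimulated effectors, 5 of 15 interferon-inducible GTPases, 4 of 8 class II genes and 6 of 13 chemokines. It holds too for 2 of 12 microglial activation genes and 1 of 2 monocyte and perivascular macrophage markers. The same is true of 1 each of the class I, complement, microglial, reactive astrocyte, immature neuron and cell cycle genes tested. Conversely 5 of 12 choroid plexus markers passed only through the controls. Counts and medians of these lists describe the members tested and support no direction.

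**Figure D1:**
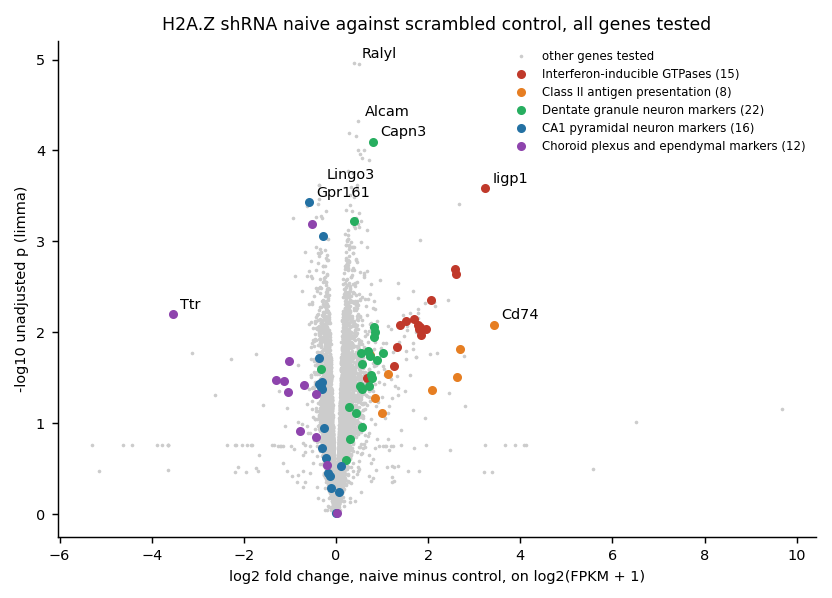
Log2 fold change of naive against control on the log2(FPKM + 1) scale (x axis) against -log10 of the unadjusted limma p (y axis) for the 12324 genes tested, with the members of 5 gene lists in colour. All 15 interferon-inducible GTPases lie to the right of 0, and 11 of 12 choroid plexus and ependymal markers lie to the left. Flat rows of grey points low in the plot belong to genes listed at 0 in some libraries.

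One group with large differences was the interferon-inducible GTPases, enzymes that attack the vacuoles of intracellular parasites. All 15 tested had higher estimates in naive libraries, with a median log2 fold change of 1.79, and the naive and control ranges of 14 of them did not overlap, where 11.2% of all genes were wholly higher. For 5 of the 15, among them Gbp10, whose value is the median, the naive libraries alone brought the mean past the filter. These genes sit in clusters: Gbp2, Gbp3, Gbp5 and Gbp7 lie together on chromosome 3 between 142493978 and 142638008, and Igtp, Irgm1, Irgm2, Ifi47, Tgtp1 and Tgtp2 lie on chromosome 11 (GRCm38). Promoters of these genes are known targets of interferon signalling, so the 250 bases before the RefSeq start of Igtp (chr11:58199306-58199555, plus strand) and of Gbp2 (chr3:142620413-142620662, plus strand) are printed from the GRCm38.p6 assembly. Beside them stand Cxcl10 (chr5:92348890-92349139, minus strand), the chemokine with the largest estimate in its list, and Isg15 (chr4:156200819-156201068, minus strand), a ubiquitin-like antiviral modifier. Capitals mark matches to the core of the interferon-stimulated response element, searched on both strands as GAAA, any 2 bases, and GAAA again, and each sequence reads 5′ to 3′ on the strand of its gene.
Igtp: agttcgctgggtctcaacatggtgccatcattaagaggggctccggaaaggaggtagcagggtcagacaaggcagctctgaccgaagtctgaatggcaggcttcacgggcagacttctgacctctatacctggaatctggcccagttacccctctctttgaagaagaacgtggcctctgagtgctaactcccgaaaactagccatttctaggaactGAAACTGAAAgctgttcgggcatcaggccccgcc
Gbp2: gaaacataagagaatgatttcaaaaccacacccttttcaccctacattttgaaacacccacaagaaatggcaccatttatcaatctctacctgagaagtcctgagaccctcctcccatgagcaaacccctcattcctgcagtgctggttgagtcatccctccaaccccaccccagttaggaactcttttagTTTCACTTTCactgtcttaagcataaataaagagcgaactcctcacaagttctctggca
Cxcl10: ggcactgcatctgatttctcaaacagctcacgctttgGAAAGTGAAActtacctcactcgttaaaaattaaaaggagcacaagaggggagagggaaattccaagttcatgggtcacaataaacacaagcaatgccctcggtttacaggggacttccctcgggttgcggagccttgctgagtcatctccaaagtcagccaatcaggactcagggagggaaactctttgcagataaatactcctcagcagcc
Isg15: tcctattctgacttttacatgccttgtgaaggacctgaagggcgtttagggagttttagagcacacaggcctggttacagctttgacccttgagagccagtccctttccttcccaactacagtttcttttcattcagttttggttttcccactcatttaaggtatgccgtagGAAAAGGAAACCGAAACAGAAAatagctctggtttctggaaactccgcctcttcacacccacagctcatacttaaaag

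In these windows the motif nearest the start began 34 bases before it in Igtp, 59 in Gbp2, 213 in Cxcl10 and 66 in Isg15, where 3 matches overlap. Of the 10 GTPase genes with a promoter in the RefSeq table, 9 held the motif in front of at least 1 of their starts, against 3.02% of the 9193 tested genes with a promoter. The exception was Ifi47. The gamma-activated site, searched as TTCNNNGAA on both strands and able to share bases with the first motif, was in 6 of the 10, against 7.02%. Among interferon-stimulated effectors 7 of 20 promoters held the first motif, among class I genes 3 of 16 and among class II genes 1 of 6. A match describes letters in the window, not a bound factor.

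Iigp1, an immunity-related GTPase, stood at 1.34, 2.33 and 1.01 FPKM in control replicates 1 to 3. It stood at 10.3, 60.7 and 17.8 FPKM in naive replicates 1 to 3 (log2 difference 3.24 with an SE of 0.55, limma adjusted p = 0.173). All naive values lie above all control values, with naive replicate 2 highest. Igtp showed the same order, at 2.48, 4.97 and 2.95 FPKM in control and 12.9, 77.7 and 15.3 FPKM in naive libraries (log2 difference 2.59 with an SE of 0.60, limma adjusted p = 0.227). Gbp2, a guanylate-binding protein gene, stood at 1.69, 3.10 and 2.04 FPKM and at 10.2, 56.9 and 10.4 FPKM. Irgm1, which regulates the other immunity-related GTPases, stood at 4.34, 8.54 and 5.90 FPKM and at 12.3, 63.6 and 17.0 FPKM. Naive replicate 2 was the highest of the 6 libraries for all 15 members, and the summed level of the list was 437 FPKM there against 79.8 and 113 in naive replicates 1 and 3 and 22.7 to 41.5 in the controls. The member whose ranges overlap was Gbp3, at 6.01 FPKM in naive replicate 1 and 7.07 in control replicate 2. Without naive replicate 2 the list median was 1.07. In the trained libraries Iigp1 stood at 1.55, 3.68 and 3.69 FPKM, and the summed list level at 23.98 to 57.7 FPKM. Tgtp1 and Tgtp2 are near copies of each other, as are several guanylate-binding protein genes, and Irgm2 overlaps Igtp in the annotation, so reads may have been split between them and single values are uncertain.

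Further members of the interferon pathway followed different libraries. Sensors of foreign nucleic acid had a median log2 fold change of 0.40, with 15 of 15 tested above 0, and a median of 0.25 without naive replicate 3. Trex1, an exonuclease that degrades cytosolic DNA, stood at 5.68, 5.60 and 4.89 FPKM in control and 6.29, 7.61 and 7.82 FPKM in naive libraries (log2 difference 0.36 with an SE of 0.08, limma adjusted p = 0.227). Ifih1, a receptor for double-stranded RNA, was at 1.10, 2.06 and 1.24 FPKM in control, and in naive replicate 1 it stood at 0.864 FPKM against 3.51 and 6.54 in replicates 2 and 3. For 8 of the 15 sensors naive replicates 2 and 3 lay above every control while naive replicate 1 did not. Among ligands, receptors and transducers the median was 0.26, with 15 of 16 above 0, and it was 0.16 without naive replicate 2. The transcription factor Irf1 stood at 2.74, 2.70 and 2.13 FPKM in control and 5.64, 20.3 and 5.40 FPKM in naive libraries (log2 difference 1.46 with an SE of 0.41, limma adjusted p = 0.244). Of the interferons, Ifnb1 was listed at 0 in all 9 libraries, and Ifng was listed at 0 in 8 of 9, with 0.267 FPKM in naive replicate 2. An exact 0 can be a failed estimate here, since the cholesterol synthesis gene Fdft1 is also listed at 0 in all 9 libraries, so no level is read from it.

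Interferon-stimulated effectors, which block viral replication, had a median log2 fold change of 0.80 and 27 of 28 estimates above 0. The ranges of only 2 members did not overlap, where 11.2% of all genes were wholly higher. The naive libraries were split. For 24 of the 28 members naive replicates 2 and 3 lay above every control and naive replicate 1 did not, a pattern seen in 807 of the 12324 genes tested. Isg15 stood at 6.30, 12.4 and 4.83 FPKM in control, and naive replicate 1, at 6.42 FPKM, lay among them, while naive replicates 2 and 3 were at 32.7 and 49.5 FPKM. Oasl2, a member of the oligoadenylate synthetase family, stood at 2.88, 8.13 and 4.10 FPKM in control and at 4.65, 27.5 and 30.0 FPKM in naive libraries. Bst2, which tethers budding virus to the cell, stood at 7.90, 13.2 and 11.2 FPKM and at 11.9, 59.2 and 64.2 FPKM. Both genes repeat the split, with naive replicate 1 inside the control range. Irf7, the factor that amplifies the type I response, did so as well, with 2.57, 6.04 and 2.99 FPKM in control and 3.09, 16.6 and 14.1 FPKM in naive libraries. Ifi27l2a was listed at 0 in all controls and in naive replicate 1, with 23.8 and 12.2 FPKM in naive replicates 2 and 3. Trafd1, a zinc finger gene that is inducible by interferon, was the member with the smallest p and showed no split, at 15.4, 14.6 and 14.2 FPKM in control and 18.9, 21.9 and 19.9 FPKM in naive libraries (log2 difference 0.43 with an SE of 0.06, limma adjusted p = 0.143). The list median was 1.28 when naive replicate 1 was left out, 0.53 when naive replicate 2 was, and 0.49 when naive replicate 3 was. Leaving out naive replicate 1 also brought 12 genes past the threshold as higher (10 of them not listed at 0 anywhere), among them Bst2 (log2 fold change 2.44, limma adjusted p = 0.0283), Oas1a (1.38, limma adjusted p = 0.0343), Ifi44 (2.01, limma adjusted p = 0.0102) and Ccl2 (2.29, limma adjusted p = 0.0265). Ifi44 and Ccl2, with control means of 0.756 and 0.143 FPKM, passed the filter only through the naive libraries, so their direction supports nothing.

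**Figure D2:**
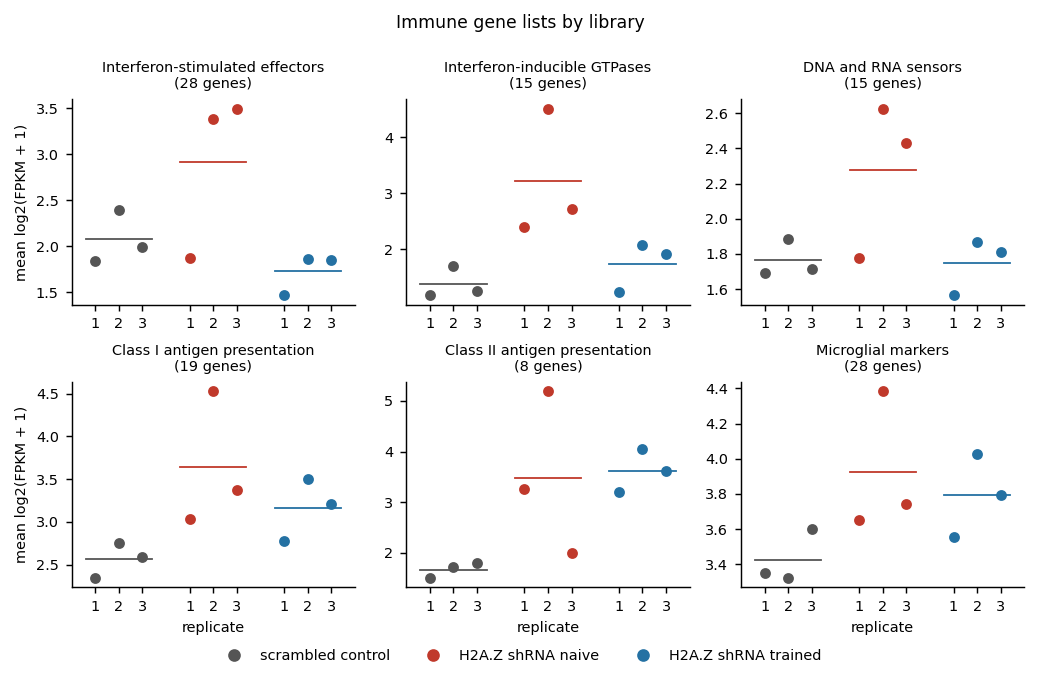
Mean log2(FPKM + 1) over the tested members of 6 immune gene lists (y axis) in each library (points, replicates on the x axis), with the group mean as a line. Interferon-stimulated effectors are high in naive replicates 2 and 3, class II genes in naive replicates 1 and 2, and GTPases in all naive libraries.

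Genes of class I antigen presentation, which show peptides from inside the cell, had a median log2 fold change of 0.99, with 19 of 19 above 0. The ranges of 12 did not overlap, where 11.2% of all genes were wholly higher. Of the 19, 1 passed the filter only through the naive libraries. H2-T23, a non-classical class I gene, stood at 5.28, 10.2 and 6.55 FPKM in control and 16.2, 75.1 and 21.4 FPKM in naive libraries (log2 difference 1.93 with an SE of 0.52, limma adjusted p = 0.237). The classical genes H2-K1 and H2-D1 stood at 13.8 to 21.99 and 17.4 to 28.8 FPKM in control and at 29.7 to 133 and 34.2 to 140.3 FPKM in naive libraries. Members of the H2 family are near-identical in parts, so reads may be shared between them. Tap1, the peptide transporter, stood at 0.841, 2.14 and 1.27 FPKM and at 2.83, 14.3 and 5.83 FPKM. B2m, the invariant light chain of class I molecules, overlapped, at 101.9, 155 and 122 FPKM against 154, 537 and 186 FPKM. Naive replicate 2 was the highest of the 6 libraries for all 19 members, and without it the median was 0.53.

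Class II genes, which show peptides from outside the cell and are a property of antigen-presenting cells, had a median of 1.60 over the 8 tested. Of these, 4 (H2-Aa, H2-Ab1, H2-Eb1 and H2-DMb1) reached the filter only through the naive libraries, and another 4 members stayed under it. Naive replicates 1 and 2 lay above every control for 8 of 8 and naive replicate 3 for 5 of 8, so 3 members had naive replicates 1 and 2, but not 3, above every control. Over all 12324 genes tested, naive replicates 1 to 3 were above every control for 3339, 3318 and 4151. Cd74, which encodes the class II invariant chain, stood at 0.401, 2.33 and 1.21 FPKM in control and at 22.6, 125 and 3.30 FPKM in naive libraries (log2 difference 3.43 with an SE of 1.01, limma adjusted p = 0.244). H2-Aa, the alpha chain of the I-A molecule, stood at 0.282, 0.630 and 0.520 FPKM in control and 8.56, 50.2 and 0.500 FPKM in naive libraries. H2-Eb1 stood at 0.366, 0.522 and 0.551 FPKM in control and 4.92, 28.0 and 0.433 FPKM in naive libraries. For H2-Aa and H2-Eb1 naive replicate 3 lay within the control range and naive replicate 1 above it. H2-Ab1, by contrast, put all naive libraries above the controls, at 0.330, 0.340 and 0.492 FPKM against 7.10, 42.4 and 1.02 FPKM. In the trained libraries H2-Aa was at 9.61, 20.8 and 13.8 FPKM and Isg15 at 1.75, 2.83 and 3.26 FPKM, so those animals were high in the class II gene and below every control in the effector. Leaving out naive replicate 2 took the list median to 0.77, and leaving out naive replicate 3 took it to 2.34.

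**Figure D3:**
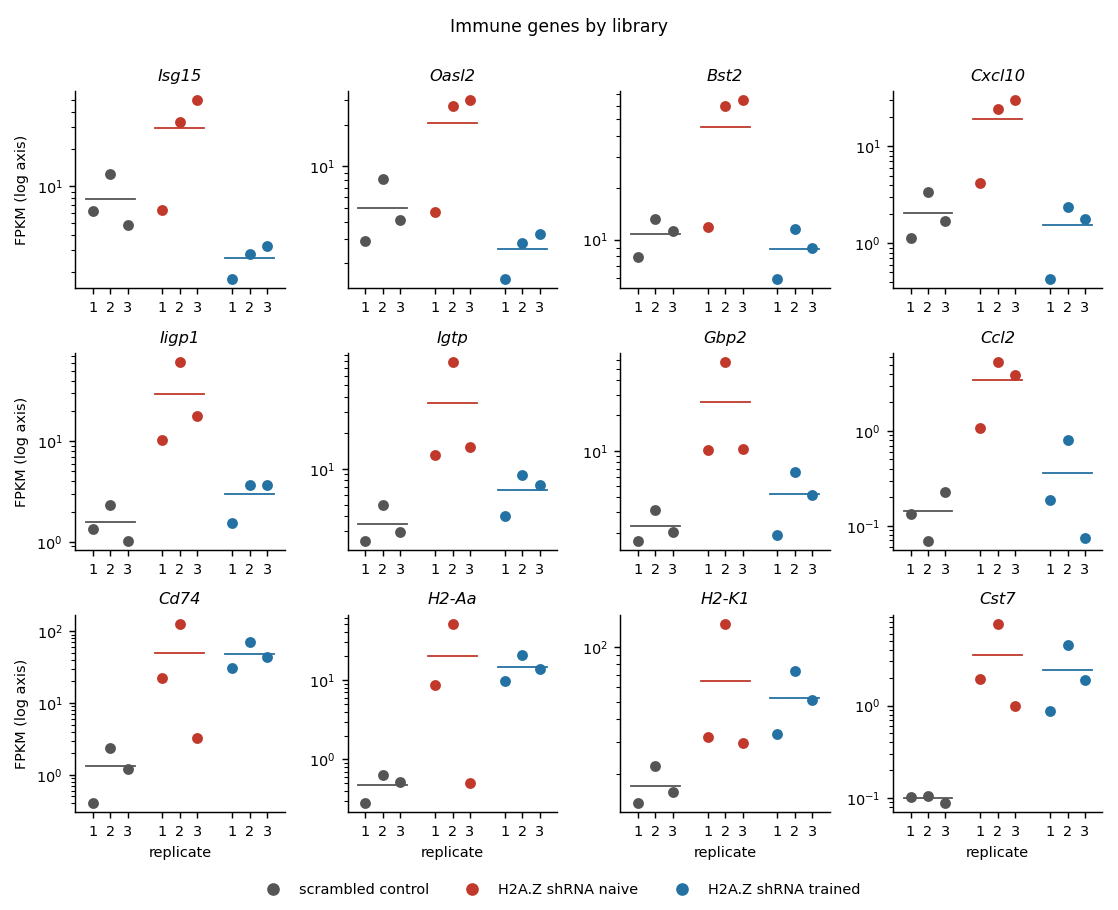
FPKM on a log axis (y axis) of 12 immune genes in each library (points, replicates on the x axis), with the group mean as a line. Isg15, Oasl2 and Bst2 leave naive replicate 1 among the controls, H2-Aa leaves naive replicate 3 among them, and Iigp1, Igtp, Gbp2, Ccl2 and Cst7 put all naive libraries above the controls. Ccl2, Cst7 and H2-Aa passed the filter only through the naive libraries.

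Of 13 tested genes for chemokines, which draw leukocytes into tissue, and their receptors, 9 were wholly above the control range, where 11.2% of all genes were. Another 2 were wholly below it, where 8.25% of all genes were. Of the 13, 6 passed the filter only through the naive libraries. Ccl2, which attracts monocytes, stood at 0.133, 0.0685 and 0.227 FPKM in control and 1.08, 5.31 and 3.92 FPKM in naive libraries (log2 difference 1.81 with an SE of 0.37, limma adjusted p = 0.208). It passed the filter only through the naive libraries. Cxcl10, which attracts activated T cells, stood at 1.14, 3.37 and 1.70 FPKM and at 4.18, 24.2 and 29.9 FPKM. In the trained libraries Cxcl10 lay at 0.424 to 2.38 FPKM. The members below the control range were Cxcl14 and the neuronal chemokine Cx3cl1, the latter at 189, 190 and 210 FPKM against 166, 168 and 183 FPKM. Among complement genes 12 of 14 had positive estimates (median 0.68, or 0.34 without naive replicate 2). Serping1, the inhibitor of the first complement complex, stood at 1.38, 1.74 and 1.28 FPKM in control and 3.35, 10.8 and 3.75 FPKM in naive libraries (log2 difference 1.35 with an SE of 0.33, limma adjusted p = 0.237). C1qb, a chain of that complex made by microglia, stood at 32.9, 32.6 and 39.8 FPKM and at 41.5, 99.1 and 51.6 FPKM.

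Markers of cells that can carry such genes differed by cell type and by library. All 28 microglial markers had estimates above 0 (median 0.48, or 0.23 without naive replicate 2), where 55.1% of all genes did. The ranges of 13 did not overlap, where 11.2% of all genes were wholly higher. Of the 28, 1 passed the filter only through the naive libraries. The summed level of the 28 markers was 375 to 465 FPKM in control and 486, 971 and 532 FPKM in naive libraries. In these bulk samples more cells of a type and more RNA per cell cannot be told apart. Itgam, an integrin of microglia and other myeloid cells, stood at 4.67, 3.98 and 5.34 FPKM and at 5.81, 9.30 and 6.67 FPKM (log2 difference 0.53 with an SE of 0.15, limma adjusted p = 0.244). Cst7, a cystatin gene of activated microglia, was at 0.0882 to 0.107 FPKM in control and at 1.94, 7.57 and 0.979 FPKM in naive libraries. It passed the filter only through the naive libraries, so its direction supports nothing. Spp1, another gene of activated microglia, had the opposite order, at 2.48, 3.76 and 2.04 FPKM against 1.16, 1.92 and 1.397 FPKM. Monocyte and perivascular macrophage markers summed to 4.04 to 5.59 FPKM in control and to 7.72, 25.1 and 11.5 FPKM in naive libraries, but 2 of the 13 members carried most of that. Ly6c2, a surface protein gene of inflammatory monocytes, stood at 1.38, 2.14 and 1.46 FPKM and at 2.18, 11.1 and 4.94 FPKM. Plac8 was listed at 0 in control replicate 1 and stood at 0.332 and 0.137 FPKM in the other controls against 1.97, 8.94 and 3.32 FPKM. Plac8 passed the filter only through the naive libraries. Of the 11 members under the filter 8 had a higher and 3 a lower naive mean, and Cbr2, a perivascular macrophage marker, stood at 0.398, 0.512 and 0.508 FPKM and at 0.453, 0.245 and 0.293 FPKM. Of 25 markers of T and natural killer lymphocytes none reached the filter, and the 22 with a row summed to 1.13 to 2.23 FPKM in control and 2.53, 7.82 and 1.59 FPKM in naive libraries. Cd3e, a chain of the T cell receptor complex, was listed at 0 in control replicate 1 and naive replicate 3. It stood at 0.103 and 0.0568 FPKM in control replicates 2 and 3 and at 0.0337 and 0.246 FPKM in naive replicates 1 and 2. Among B and plasma cell markers Cd79a, a chain of the B cell receptor, was at 0.0622 to 0.113 FPKM in control and 0 to 0.0431 FPKM in naive libraries, while Igj, the joining chain of plasma cells, was at 0.155 FPKM or less in these 6 libraries and at 61.6 FPKM in trained replicate 2. The median of reactive astrocyte genes was 0.44 (0.27 without naive replicate 2), and Gfap, the astrocyte filament gene, overlapped, at 122, 133 and 159 FPKM against 148, 273 and 169.8 FPKM. Astrocyte identity markers were nearly level (median 0.04, 12 of 20 above 0). With the dentate markers of each library as a covariate the medians were larger, at 1.20 for the effectors, 1.14 for complement, 0.75 for microglial markers and 0.76 for reactive astrocyte genes. The part of these cell types in the interferon genes was not tested.

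Among the genes with the smallest p were Iigp1 and Trafd1, described above, and genes of other kinds with smaller differences than that of Iigp1. Ralyl, an RNA-binding protein gene on chromosome 3 at 13471655 to 14182287, stood at 23.9, 25.0 and 22.5 FPKM in control and 31.4, 32.0 and 31.4 FPKM in naive libraries (log2 difference 0.40 with an SE of 0.04, limma adjusted p = 0.069). Alcam, an adhesion molecule of neurons and leukocytes, stood at 19.7, 16.9 and 19.5 FPKM and at 26.9, 26.5 and 25.4 FPKM (log2 difference 0.47 with an SE of 0.06, limma adjusted p = 0.143). Marcks, which binds actin and is a substrate of protein kinase C, stood at 41.1, 38.8 and 38.6 FPKM and at 48.1, 48.4 and 47.9 FPKM. Genes were ranked by p only among those with a name of their own and ranges that do not overlap. That all naive values lie above all control values is therefore given by the choice. The naive libraries lie close together for Ralyl, Alcam and Marcks, though not for Iigp1. A ranking by p favours genes with a small spread within groups. Idi1, an isomerase of the cholesterol pathway, stood at 14.1, 14.3 and 14.4 FPKM and at 19.0, 17.8 and 19.0 FPKM. Agmo, which cleaves ether lipids, stood at 1.98, 1.77 and 1.65 FPKM and at 2.85, 2.93 and 2.89 FPKM. In the trained libraries, which carry the same hairpin, Ralyl stood at 29.6, 30.4 and 30.3 FPKM and Agmo at 3.22, 3.51 and 3.02 FPKM, all above the controls.

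Others among the 15 higher genes of smallest p were Cyth4, an exchange factor for Arf GTPases, at 3.70 to 4.53 FPKM in control and 6.02 to 7.28 FPKM in naive libraries, and Cyld, a deubiquitinase of inflammatory signalling, at 12.9 to 15.7 and 18.2 to 20.4 FPKM. Pgam2, the muscle form of a glycolytic mutase, stood at 2.96 to 4.40 and 6.12 to 7.05 FPKM, and Cdc42ep4, an effector of the small GTPase Cdc42, at 9.10 to 10.9 and 13.8 to 14.6 FPKM. Smco4 and Zfp513 stood at 1.46 to 1.64 and 6.46 to 6.69 FPKM in control and at 2.58 to 3.23 and 7.84 to 8.28 FPKM in naive libraries. Capn3, a calpain protease and dentate marker, stood at 3.20, 2.20 and 2.09 FPKM in control and 4.94, 5.52 and 4.69 FPKM in naive libraries. It passed the threshold without control replicate 1 (limma adjusted p = 0.0117) and with array quality weights (limma adjusted p = 0.0446), and Ralyl passed with a filter of 5 FPKM (limma adjusted p = 0.0467).

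**Figure D4:**
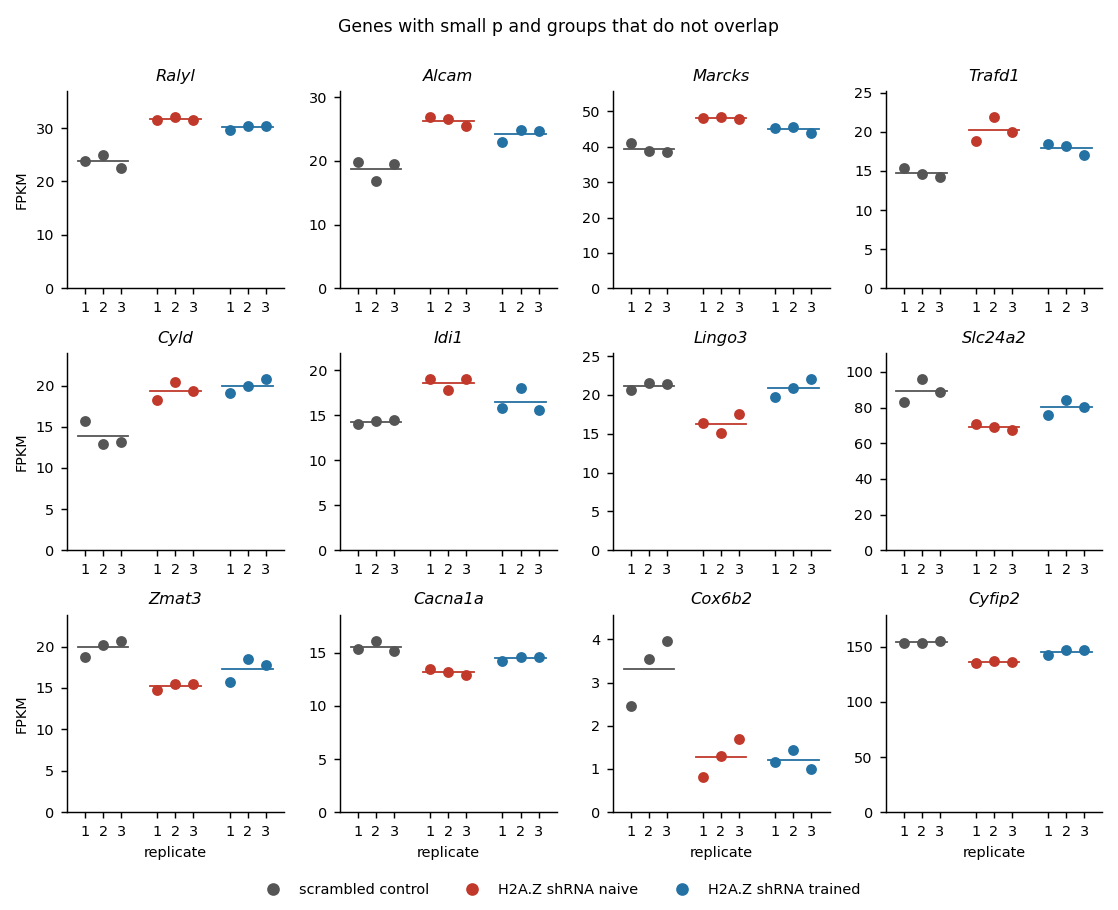
FPKM (y axis, from 0) of 12 of the genes with the smallest p in each library (points, replicates on the x axis), with the group mean as a line. The genes were chosen among those whose naive and control ranges do not overlap, so the gap in each panel follows from the choice. Lingo3 returns to 19.8 to 22.1 FPKM in the trained libraries, while Cox6b2 stays at 0.998 to 1.45 FPKM.

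On the lower side, ranked in the same way, the smallest p belonged to Lingo3, a leucine-rich repeat membrane protein gene on chromosome 10 at 80832801 to 80844039. It stood at 20.7, 21.5 and 21.4 FPKM in control and 16.3, 15.1 and 17.5 FPKM in naive libraries (log2 difference -0.36 with an SE of 0.06, limma adjusted p = 0.173). In the trained libraries it stood at 19.8, 20.9 and 22.1 FPKM, around the control level. Cox6b2, an isoform of a cytochrome c oxidase subunit, had the largest relative difference among the 15, at 2.45, 3.54 and 3.96 FPKM in control and 0.817, 1.29 and 1.69 FPKM in naive libraries (log2 difference -0.93 with an SE of 0.18, limma adjusted p = 0.187). It stood at 1.16, 1.45 and 0.998 FPKM in the trained libraries, all below the controls. Akr1c18, an enzyme of progesterone breakdown, stood at 5.10, 5.73 and 5.92 FPKM and at 2.81, 3.77 and 3.29 FPKM. Zmat3, a p53 target that binds RNA, stood at 18.8, 20.2 and 20.7 FPKM and at 14.7, 15.5 and 15.5 FPKM. Cyfip2, a subunit of the actin-regulating WAVE complex, stood at 153, 154 and 155 FPKM against 135, 137 and 136 FPKM (log2 difference -0.18 with an SE of 0.04, limma adjusted p = 0.208). Shb, an SH2 adaptor, stood at 4.19 to 4.67 FPKM and at 2.93 to 3.33 FPKM, Rasgrp2, an exchange factor for Ras family GTPases, at 3.61 to 4.03 and 2.52 to 2.69 FPKM, and Rabl2, a small GTPase, at 7.58 to 8.49 and 5.71 to 6.52 FPKM. Rian, a long noncoding RNA of the imprinted Dlk1-Dio3 region, stood at 91.7 to 95.0 FPKM and 72.9 to 76.7 FPKM.

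Several genes of excitability and calcium handling were among the lower ones. Slc24a2, a potassium-dependent sodium-calcium exchanger, stood at 83.1, 96.0 and 88.9 FPKM in control and 70.9, 69.1 and 67.2 FPKM in naive libraries (log2 difference -0.36 with an SE of 0.06, limma adjusted p = 0.173). Cacna1a, the pore of P/Q-type calcium channels, stood at 15.4, 16.1 and 15.2 FPKM and at 13.5, 13.2 and 12.9 FPKM (log2 difference -0.22 with an SE of 0.04, limma adjusted p = 0.187). Atp2a2, the calcium pump of the endoplasmic reticulum, stood at 162, 160.3 and 159 FPKM and at 135, 138 and 139 FPKM. These genes were chosen among those whose ranges do not overlap. As lists, sodium channel genes had 7 of 9 estimates below 0 (median -0.12) with 4 wholly lower, HCN and chloride channel genes 8 of 10 below 0 (median -0.08) with 4 wholly lower, and calcium channel genes 17 of 30 below 0 (median -0.05) with 8 wholly lower, where 8.25% of all genes were wholly lower. Scn4b, an auxiliary sodium channel subunit, had the largest difference among sodium channel genes, at 11.4, 17.9 and 18.2 FPKM against 5.98, 8.58 and 9.56 FPKM. Hcn2, a pacemaker channel, stood at 29.5, 37.8 and 36.3 FPKM and at 24.3, 25.0 and 26.0 FPKM (log2 difference -0.44 with an SE of 0.09, limma adjusted p = 0.208). Potassium channel genes were nearly level (median -0.03, 33 of 51 below 0), although Kcnn2, a calcium-activated channel of CA1 neurons, stood at 32.6 to 33.1 FPKM in control and 25.8 to 28.3 FPKM in naive libraries. The sodium channel median lay between -0.13 and -0.11 when each naive or control library was left out in turn, and was -0.12 with the dentate covariate. The other channel lists were less even: the HCN and chloride channel median was -0.01 with that covariate, and the calcium channel median was -0.01 without control replicate 3 and -0.0020 without naive replicate 3.

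Receptor and synapse lists differed little as groups. Medians were -0.06 for AMPA, NMDA and kainate receptor genes (16 of 23 below 0), -0.05 for postsynaptic scaffolds and kinases (18 of 31 below 0), -0.01 for GABA-A receptor genes (7 of 14 below 0) and -0.06 for presynaptic release genes (27 of 38 below 0). Single members stood apart in both directions. Prkca, a protein kinase C, stood at 37.0, 45.4 and 44.5 FPKM in control and 31.2, 35.1 and 32.9 FPKM in naive libraries (log2 difference -0.34 with an SE of 0.08, limma adjusted p = 0.234). Cplx2, a complexin that controls vesicle fusion, stood higher, at 305, 239 and 255 FPKM against 382, 325 and 379 FPKM.

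Markers of hippocampal fields differed between the groups in the same libraries. Of 22 dentate granule neuron markers 21 were above 0 (median log2 fold change 0.63), and the ranges of 6 were wholly higher, where 11.2% of all genes were. Control replicate 1 lay near the naive libraries. The summed level of the list was 552, 353 and 337 FPKM in control replicates 1 to 3 and 636, 520 and 626 FPKM in naive replicates 1 to 3. Prox1 stood at 18.9, 11.8 and 9.66 FPKM in control and 28.9, 19.7 and 24.7 FPKM in naive libraries (log2 difference 0.85 with an SE of 0.26, limma adjusted p = 0.244). CA1 pyramidal neuron markers had 14 of 16 estimates below 0 (median -0.27), with 6 wholly lower, where 8.25% of all genes were. Gpr161, a receptor of the primary cilium, led them at 16.1, 16.3 and 16.9 FPKM against 9.02, 12.4 and 10.6 FPKM (log2 difference -0.58 with an SE of 0.10, limma adjusted p = 0.187), and stood at 13.8, 16.6 and 15.9 FPKM in the trained libraries. Wfs1 stood at 76.8, 84.8 and 99.6 FPKM against 61.2, 72.1 and 75.8 FPKM, so naive replicate 3 lay just below the lowest control. Markers of CA2 and CA3 (median 0.06), of subiculum and cortex (-0.12) and of GABAergic interneurons (-0.05) were close to level. Without control replicate 1 the dentate median was 0.95. Without control replicate 3 the CA1 median was -0.11. With the dentate markers as a covariate the CA1 median was 0.03. That covariate is the mean log2(FPKM + 1) of the dentate list. It was 4.06, 3.42 and 3.27 in control replicates 1 to 3 and 4.26, 4.02 and 4.24 in naive replicates 1 to 3. Since it runs largely with the groups, medians fitted with it cannot tell a share of dentate tissue from the group label. Whether the share of dentate tissue plays a part in other results was not tested.

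Choroid plexus and ependymal markers had 11 of 12 estimates below 0 (median -0.73), and naive replicates 1 and 2 were each below every control for 10 of 12, naive replicate 3 for 4. Ttr, which encodes transthyretin and marks the choroid plexus, stood at 33.2, 132 and 764 FPKM in control and 5.77, 12.5 and 23.4 FPKM in naive libraries (log2 difference -3.54 with an SE of 0.99, limma adjusted p = 0.244). The groups do not overlap, and control replicate 3 stands far above the rest. Without it the list median was -0.43, without control replicate 1 it was -1.11, and with the dentate covariate it was -0.22. Cdr2, a coiled-coil protein gene of the same list, showed no such library, at 2.92, 3.10 and 2.87 FPKM against 1.498, 1.72 and 2.10 FPKM. Oligodendrocyte markers had 22 of 24 below 0 (median -0.25) with 3 wholly lower, where 8.25% of all genes were. Naive replicate 1 was below every control for 20 of the 24 and naive replicate 2 for 19, against 3 for naive replicate 3. Over all 12324 genes tested, naive replicates 1 to 3 were below every control for 3334, 2652 and 2372. Mbp, a major myelin protein, overlapped, at 551, 904 and 576 FPKM against 367, 424 and 627 FPKM. For the oligodendrocyte median, leaving out control replicate 2 gave -0.12, control replicate 1 gave -0.38, naive replicate 1 gave -0.15 and naive replicate 3 gave -0.42, and the dentate covariate gave -0.01.

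**Figure D5:**
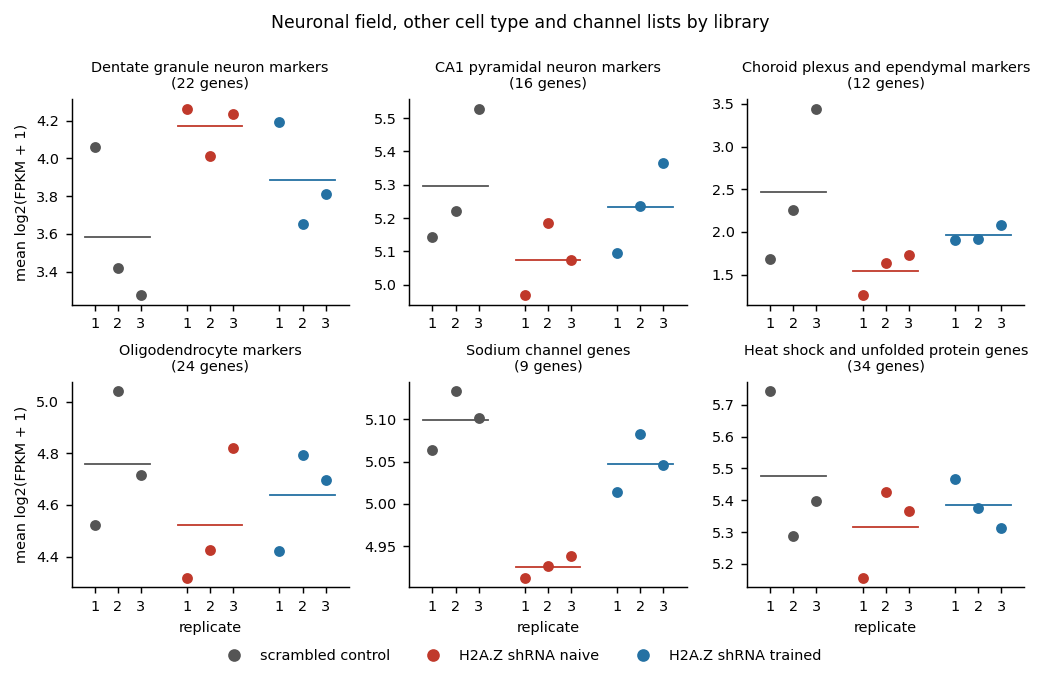
Mean log2(FPKM + 1) over the tested members of 6 lists (y axis) in each library (points, replicates on the x axis), with the group mean as a line. Control replicate 1 lies near the naive libraries for dentate markers and above all others for heat shock genes, control replicate 3 is highest for choroid plexus markers, and the sodium channel means of naive and control libraries do not overlap.

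Housekeeping groups differed little. Of 79 cytosolic ribosomal protein genes 73 were above 0 (median log2 fold change 0.10), with 11 wholly higher, where 11.2% of all genes were. Naive replicate 3 was above every control for 66 of the 79 and naive replicate 2 for 54, but naive replicate 1 for 14. Over all 12324 genes tested, those counts were 4151, 3318 and 3339. The median was 0.06 without naive replicate 3 and 0.18 with the dentate covariate. Rps2 stood at 39.0, 37.4 and 41.2 FPKM in control and 44.2, 46.5 and 48.8 FPKM in naive libraries. Nuclear genes of the respiratory chain had 62 of 75 below 0 (median -0.06) with 3 wholly lower, where 8.25% of all genes were. Naive replicate 1 was below every control for 47 of the 75, against 3334 of all 12324 genes tested. The respiratory chain median was 0.08 with the dentate covariate, -0.12 without control replicate 1, -0.03 without either of the other controls and -0.02 without naive replicate 1. Heat shock and unfolded protein genes had 33 of 34 below 0 (median -0.14), and control replicate 1 was the highest of the 6 libraries for 30. Leaving out control replicate 1 gave -0.02, control replicate 2 gave -0.22 and naive replicate 1 gave -0.05, and the dentate covariate gave a median of -0.31. Hspa4l, a chaperone of the heat shock family, also peaked in control replicate 1, at 38.5, 33.5 and 32.4 FPKM against 27.04, 29.9 and 27.7 FPKM.

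Set against the trained libraries, the naive ones differed in 1 gene past the threshold (1 higher in trained, 0.00811%, and 0 lower, 0%). Sgk1, a kinase induced by glucocorticoids, stood at 13.2, 14.9 and 14.99 FPKM in naive and 26.4, 27.1 and 26.5 FPKM in trained libraries (log2 difference 0.85 with an SE of 0.07, limma adjusted p = 0.00665). It stood at 16.6, 15.4 and 14.2 FPKM in control, so the naive and control ranges overlap. Without any 1 of the trained libraries no gene passed. Before adjustment 686 genes (5.57%) had a p under 0.05 and were lower in trained libraries, and 331 (2.69%) were higher. Without naive replicate 1, 26 genes passed as lower in trained libraries, Isg15 among them (log2 fold change -3.54, limma adjusted p = 0.0135). The naive libraries enter both comparisons, so the values do not repeat each other independently.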

How the data were processed

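Per the labels' protocols, total RNA of CA1 (1 µg, RNA integrity number above 7.9) was made into directional polyadenylated RNA libraries and sequenced as 50 bp paired-end reads. The submitters' processing notes name FastQC, TopHat 1.4.0, Cufflinks, Cuffdiff and mm10; the annotation and the use of strand in counting are not given in the sources used, so genes and their antisense partners may share reads. The authors deposited FPKM values per gene and library, with no counts, and depth was estimated from the steps between low values.

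Left out were 27 rows whose names had become dates. The filter was a mean over the 6 libraries of 1 FPKM or more; of the genes kept, 131 are listed at 0 in some of the 6, and 100 share a name and were tested but not named. The replicates are labelled biological; animals per library are not stated. log2(FPKM + 1) was fitted over all 9 libraries in 3 groups with limma 3.58.1 (R 4.3.3, trend prior, 6 residual and 2.76 prior degrees of freedom, two-sided, Benjamini-Hochberg over 12324 genes). The added 1 draws fold changes of low genes toward 0. The method was tested on simulated data. GENCODE M21 (GRCm38, the assembly of mm10) matched 95.4% of the genes tested, and promoters come from RefSeq on GRCm38.p6.

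The 49 gene lists, the comparisons and the naming rule were chosen with earlier results of these data known. The rule names the target genes, per direction the 15 of smallest p and the 12 of largest fold change with ranges that do not overlap, up to 4 members of smallest p per list, 6 genes per library that stand farthest from their group, and markers. A730017C20Rik, Cbr2, Cd79a, Cx3cl1, Cxcl14, Fdft1, Gbp3, Gbp5, Gbp7, H2-DMb1, H2-Eb1, H2-K1, Ifi47, Ifih1, Igj, Irgm2, Oas1a, Oasl2, Sgk1 and Tgtp1 were named after their values were seen. Some genes that the rule names are not reported here. Alternatives were other scalings, pseudocount, filters, priors, array weights, a dentate covariate and leaving out libraries, plus leaving out genes listed at 0, which was added after seeing the data. Python 3.11.15, pandas 2.3.3, numpy 2.4.6 and matplotlib 3.10.9 were used.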

Additional observations from a re-analysis of the deposited data

How the results depend on the processing

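No gene passed in naive against control under the scalings, a pseudocount of 0.1, no filter, a robust prior, the 6 libraries alone, the dentate covariate, genes listed at 0 left out, or without any 1 trained library. The count of higher genes was 2 with a filter of 5 FPKM (Ralyl and A730017C20Rik), 3 with array quality weights, and 0 to 12 when each library was left out in turn: 9 without control replicate 1, 3 without control replicate 3, 12 without naive replicate 1 and 3 without naive replicate 3, the last 3 all listed at 0 in some library. The count of lower genes was 0 to 5, with 5 without control replicate 1 and 1 without naive replicate 3. Without both control replicate 1 and naive replicate 2, 1 gene was higher (Capn3) and 3 were lower, all 3 of which are listed at 0 somewhere. Trained against naive gave 0 to 2 higher and 0 to 26 lower genes without single libraries, 0 higher without that pair of libraries, and 1 lower (Cldn5) with the dentate covariate. Of 1326 recomputed values of 64 named genes, 10 crossed the threshold and 3 turned direction: H2afz to 0.04 without control replicate 2 and to 0.04 without naive replicate 1 (from -0.034 to 0.043 over all single libraries left out), and Arc to -0.28 with the dentate covariate. Of 1007 recomputed list medians 43 changed sign, none of them in the interferon, class I, class II, chemokine, complement, microglial, choroid plexus, oligodendrocyte, sodium channel, ribosomal or heat shock lists. Many of these values could not move. Fold changes are the same by design with no filter, a robust prior, the 6 libraries alone or without 1 trained library. Many named genes were picked for ranges that do not overlap, and some list members passed only through 1 group. Kept signs therefore support no direction. No paired analysis was possible because the labels give the groups no shared replicate numbers. Exact zeros and 3 libraries a group limit what could be called.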

Other observations

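Genes of new and immature neurons were a mixed list (median log2 fold change 0.06, 13 of 20 above 0). In it 7 members were wholly higher in naive libraries, where 11.2% of all genes were. Of the 20, 1 passed the filter only through the naive libraries. Dcx, a microtubule protein of migrating neurons, stood at 1.43, 1.43 and 1.41 FPKM in control and 2.46, 1.82 and 2.05 FPKM in naive libraries (log2 difference 0.35 with an SE of 0.11, limma adjusted p = 0.248). Marcksl1, a relative of Marcks, stood at 33.3, 26.0 and 30.7 FPKM and at 49.7, 39.7 and 49.1 FPKM, and Tubb2b, a tubulin of developing neurons, at 97.5, 98.9 and 107.3 FPKM and 123, 127 and 117 FPKM. Calb2, which marks immature granule cells and some interneurons, stood at 2.58 to 3.69 FPKM in control and 4.77 to 8.59 FPKM in naive libraries. Among cell cycle genes, Mcm6, a helicase subunit of DNA replication, stood at 6.77, 4.15 and 4.19 FPKM and at 8.40, 8.27 and 9.88 FPKM. The dentate markers were higher in the same libraries, and their part in these genes was not tested.

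p53 target genes stood apart in both directions, with 5 of 19 wholly higher and 5 wholly lower (median -0.05). Over all genes 11.2% were wholly higher and 8.25% wholly lower. Bbc3, a promoter of apoptosis, stood at 1.77, 1.73 and 1.91 FPKM in control and 2.69, 2.41 and 2.71 FPKM in naive libraries (log2 difference 0.36 with an SE of 0.07, limma adjusted p = 0.187), and Rrm2b, a subunit of ribonucleotide reductase, at 9.96, 9.36 and 9.55 FPKM and 11.9, 10.98 and 11.6 FPKM. Immediate early genes were level as a list (median 0.03, 21 of 37 above 0). Arc, a gene induced by synaptic activity, stood at 88.4, 32.9 and 36.8 FPKM in control, where replicate 1 was far above the others, and at 46.8, 63.8 and 62.8 FPKM in naive libraries. Gadd45g, a stress gene, stood at 8.88, 7.56 and 6.09 FPKM and at 10.1, 11.8 and 12.3 FPKM.

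Genes of H2A.Z exchange complexes were close to level (median 0.05, 22 of 33 above 0), with Actl6b, an actin-related subunit of neuronal remodelling complexes, at 36.7, 32.7 and 37.5 FPKM in control and 44.2, 38.4 and 42.1 FPKM in naive libraries. Srcap, a gene of the same list, has no row of its own among the deposited values and is not one of the 33. Other H2A and H3 variant genes had a median of 0.04 (13 of 15 above 0) and histone acetylation and methylation enzymes one of 0.04 (29 of 41 above 0).

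The genes that set a single library farthest from its group were mostly abundant genes listed at exactly 0. Mapk9, a stress kinase gene, was listed at 0 in control replicate 1 and at 35.0 to 39.3 FPKM in the other 8 libraries, Snrpn at 0 in control replicate 3 and at 199 to 251 FPKM in the others, and Rpl26, a ribosomal protein gene, at 9.95 FPKM in control replicate 3 and at 0 in the others. Such zeros are not levels.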
